A study of Mus musculus with 10 samples.

Results

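Transcripts of the choroid plexus epithelium were followed through RNA sequencing of the mouse hippocampus after subarachnoid hemorrhage (SAH). The 10 genes described are Ttr, Kl, Folr1, Clic6, Otx2, Sostdc1, Prlr, Enpp2, F5 and Slc4a5, known markers of that epithelium, matched by gene name among the 24391 gene names of the count tables. All 10 were detected in every mouse and all 10 passed the filter on low counts. The study compared 4 SAH mice, in which a filament perforated the circle of Willis on 1 side, with 3 Sham mice, in which the filament was advanced and withdrawn without a puncture, and 3 Naive mice without surgery. Whole hippocampus of both sides was taken from each mouse on day 4 and gave 1 library per mouse. All groups were male, 10 to 14 weeks old and without drug treatment, and the study's methods give the strain as C56BL/6J. SAH mice were kept only if cerebral blood flow had fallen sharply at perforation, and the Sham mice shared the neck surgery, the anesthesia and the cut external carotid artery. Sham and Naive mice were pooled as a control group of 6 mice and were also compared apart.

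The choroid plexus is a fold of vascular stroma covered by a single epithelial sheet that hangs in the brain ventricles. Its epithelium secretes cerebrospinal fluid by moving sodium, chloride, bicarbonate and water from blood to ventricle, and it makes carrier proteins, hormones and vitamins available to the brain. The plexus of the lateral ventricle is attached along the choroid fissure, directly beside the hippocampus, and is not part of it. The 10 genes cover several roles. Ttr, Enpp2, F5 and Sostdc1 encode secreted proteins, Kl, Folr1 and Prlr encode receptors or co-receptors, Slc4a5 and Clic6 encode an ion transporter and a chloride channel protein, and Otx2 encodes a transcription factor.

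Levels are given as CPM, which relates a count to the size of its library after normalization by the trimmed mean of M values (TMM), and levels of different genes are compared only as RPKM, that is CPM per kilobase of exon. A gene was called changed at an adjusted p under 0.10 over all genes tested (edgeR quasi-likelihood test, Benjamini-Hochberg adjustment). In a bulk sample more cells of a type and more RNA per cell cannot be told apart, and this holds for every value below.

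Sequence upstream of the genes is shown for 3 of them, chosen by likeness to Ttr across the 10 mice or by the encoded factor. F5 followed Ttr most closely, Prlr followed it least, and Otx2 encodes the homeodomain factor of the set. Each run holds the 250 bases before a RefSeq transcript start (GRCm38.p6), located in mm9 by exact match, 5′ to 3′ on the strand of the gene. No run touches an annotated exon. Capitals mark matches to the motifs searched on either strand, which were the OTX type TAATCC, the homeodomain core TAATTA, the TATA box letters TATAAA and the CCAAT box letters.
F5, chr1:166081716-166081965, plus strand: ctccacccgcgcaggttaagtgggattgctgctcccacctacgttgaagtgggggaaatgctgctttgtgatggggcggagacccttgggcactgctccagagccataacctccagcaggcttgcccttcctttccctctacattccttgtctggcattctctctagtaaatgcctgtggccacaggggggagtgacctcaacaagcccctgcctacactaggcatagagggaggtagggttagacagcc
Otx2, chr14:49287320-49287569, minus strand: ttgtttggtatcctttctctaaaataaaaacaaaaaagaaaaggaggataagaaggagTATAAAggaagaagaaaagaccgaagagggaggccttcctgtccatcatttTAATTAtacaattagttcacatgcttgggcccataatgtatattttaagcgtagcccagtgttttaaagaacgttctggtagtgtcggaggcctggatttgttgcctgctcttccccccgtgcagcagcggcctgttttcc
Prlr, chr15:10106743-10106992, plus strand: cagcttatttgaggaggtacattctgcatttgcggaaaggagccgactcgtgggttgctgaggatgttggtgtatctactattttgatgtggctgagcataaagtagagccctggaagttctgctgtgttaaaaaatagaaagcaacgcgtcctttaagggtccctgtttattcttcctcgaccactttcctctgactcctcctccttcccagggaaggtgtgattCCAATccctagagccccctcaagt

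The upstream run of F5 held none of the 4 motifs, that of Otx2 held TATAAA and TAATTA, and that of Prlr held CCAAT. RefSeq promoters of 300 bases (250 before to 50 after the start) were matched for 5 of the 10 genes, F5, Kl, Otx2, Prlr and Slc4a5, with 10 promoters among them, while Ttr, Folr1, Clic6, Sostdc1 and Enpp2 were not matched. TAATCC, a site type bound by OTX proteins, was in 1 of the 10 promoters, an internal one of Otx2, and in 7.06% of all promoters of that length. TAATTA was in 2 of the 10, both of Otx2, against 5.29% of all promoters, TATAAA in 2 (Otx2 and Slc4a5) against 13.6%, and CCAAT in 2 (Otx2 and Prlr) against 37.4%. TAATTA reads the same on both strands, and none of the motifs searched contains another. None of the 4 motifs was thus found in all 5 genes, while TATAAA and CCAAT were each found in 2 of them.

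Library totals ran from 19743388 to 27254655 counts. The hippocampal neuron markers (8 of 8 detected) summed to 712 to 823 CPM per mouse and thalamic markers to 68.0 to 108 CPM. The 6 globin genes of the blood list were listed at 0 in every mouse. The authors left out reads without a unique position or a single matching gene model. These 0 counts therefore do not show that blood was absent.

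A few libraries stood apart in the 10 genes, and they came from both sides of the comparison. SAH 3, SAH 4 and Sham 7 were the 3 highest mice in 10 of 10 genes, with SAH 3 highest in 9 of them and SAH 4 in Sostdc1. The same 3 mice were highest in 327 of the 14993 genes tested (2.18%). Sham 7 was never ranked below the third place in these genes and the other Sham mice never above the fourth. Among the other 7 mice, SAH 2 and Sham 5 had the highest median rank (4.5 each), and the lowest level fell in a Naive mouse in 8 genes and in Sham 6 in 2. The 3 libraries had 20099076, 24852586 and 24830805 counts, within the range of the others. Why they stood apart was not tested, and results are given with and without Sham 7 below.

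**Figure D1:**
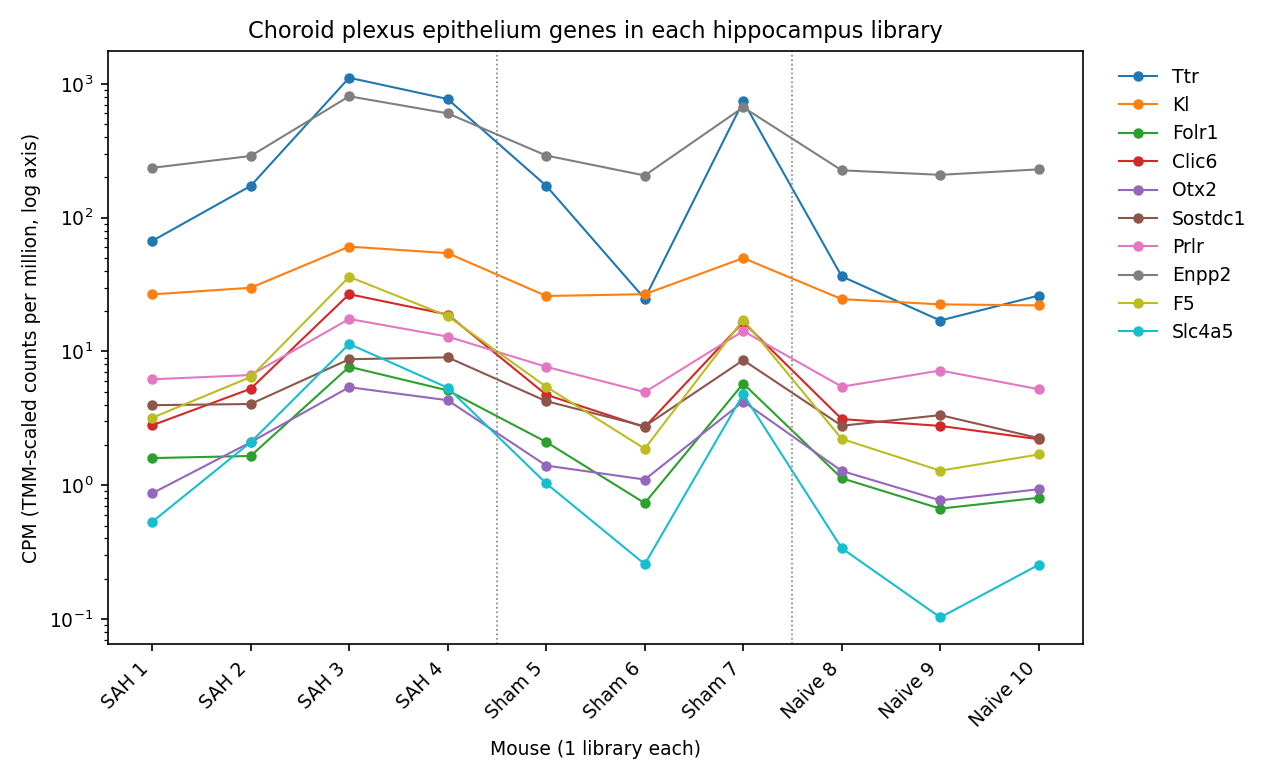
Level of each of the 10 genes (CPM after TMM scaling, log axis) in each of the 10 mice, with 1 point per mouse, lines joining the points of a gene only to guide the eye, and dotted lines between groups. SAH 3, SAH 4 and Sham 7 lie above the other 7 mice in every gene, and Slc4a5 and Ttr span the widest ranges.

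Of the secreted proteins, transthyretin (Ttr; chromosome 18, 20823751 to 20832827, mm9), which carries thyroxine and retinol-binding protein in cerebrospinal fluid, is the most abundant epithelial product of the plexus. Its level was 66.9, 172, 1109.6 and 769 CPM in SAH 1 to 4, 173, 24.8 and 739.9 CPM in Sham 5 to 7, and 36.4, 17.0 and 26.1 CPM in Naive 8 to 10. Every SAH mouse was above every Naive mouse, whereas the Sham mice lay on both sides: Sham 6 among the Naive mice, Sham 5 beside SAH 2, and Sham 7 beside SAH 4. The highest mouse had 65.2 times the lowest. The gap between the third mouse and the fourth was 2.10 on the log2 scale, smaller than the range of 3.34 among the 7 mice below it.

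Autotaxin (Enpp2; chromosome 15, 54670234 to 54751701) is a secreted enzyme that makes lysophosphatidic acid, and oligodendrocytes are a known second source of it. Enpp2 stood at 235, 289, 807 and 601 CPM in SAH 1 to 4, at 291, 206 and 667 CPM in Sham 5 to 7 and at 226, 209 and 229 CPM in Naive 8 to 10. The Naive mice were nearly alike (221 ± 10.9 CPM, SD, n = 3), and SAH 3, SAH 4 and Sham 7 lay above them by less than in Ttr, with 3.91 times between the highest and lowest mouse.

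Coagulation factor V (F5; chromosome 1, 166081966 to 166150408) is the cofactor of factor Xa in clotting and is made chiefly in the liver. In the hippocampus F5 had 3.19, 6.43, 36.1 and 18.4 CPM in the SAH mice, 5.45, 1.87 and 17.3 CPM in the Sham mice and 2.22, 1.29 and 1.70 CPM in the Naive mice. The order of the mice was nearly that of Ttr, with a range of 28.1-fold. F5 overlaps Gm16548 on the opposite strand, and the counting was strand-specific.

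Sostdc1 (chromosome 12, 37040756 to 37045039), a secreted antagonist of BMP and Wnt signaling, varied less. It had 3.96, 4.04, 8.74 and 9.03 CPM in the SAH mice, 4.25, 2.76 and 8.61 CPM in the Sham mice and 2.78, 3.34 and 2.25 CPM in the Naive mice. Both lower SAH mice were above every Naive mouse and within the Sham range.

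Among the receptors, Klotho (Kl; chromosome 5, 151755182 to 151796392), the co-receptor for FGF23, had 26.7, 29.9, 60.7 and 54.2 CPM in SAH 1 to 4, 25.9, 26.8 and 49.8 CPM in Sham 5 to 7, and 24.6, 22.5 and 22.1 CPM in Naive 8 to 10. Its range of 2.75-fold was the narrowest of the 10 genes. Klotho is also known from hippocampal neurons.

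Folate receptor alpha (Folr1; chromosome 7, 109006845 to 109019302), which carries folate across the epithelium, was a low transcript with 1.6, 1.65, 7.68 and 5.11 CPM in the SAH mice, 2.10, 0.735 and 5.75 CPM in the Sham mice and 1.13, 0.668 and 0.806 CPM in the Naive mice. Its counts ran from 13 in Naive 9 to 152 in SAH 3. All 4 SAH mice again lay above the 3 Naive mice.

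The prolactin receptor (Prlr; chromosome 15, 10106993 to 10278935) had 6.19, 6.65, 17.5 and 12.9 CPM in the SAH mice, 7.67, 4.96 and 14.2 CPM in the Sham mice and 5.45, 7.20 and 5.22 CPM in the Naive mice. Naive 9 was above SAH 1 and SAH 2, so that the groups overlapped even between SAH and Naive.

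Of the genes for ion handling, Slc4a5 (chromosome 6, 83187369 to 83254939), the sodium bicarbonate cotransporter NBCe2 of the apical membrane, had a lower mean RPKM than Clic6 in each group. Its raw counts were 11, 57, 225 and 134 in SAH 1 to 4, 25, 7 and 119 in Sham 5 to 7, and 9, 2 and 6 in Naive 8 to 10, which is 0.532, 2.10, 11.4 and 5.35 CPM, 1.03, 0.257 and 4.79 CPM, and 0.338, 0.103 and 0.255 CPM. The highest mouse had 110.5 times the level of the lowest, but the lowest had 2 counts, and the 95% interval of that ratio ran from 30.2 to 918.2 (exact Clopper-Pearson, counting error only). Every SAH mouse was above every Naive mouse.

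Clic6 (chromosome 16, 92498392 to 92541486), a chloride intracellular channel protein, had 2.80, 5.26, 26.8 and 18.9 CPM in the SAH mice, 4.74, 2.72 and 16.6 CPM in the Sham mice and 3.12, 2.78 and 2.21 CPM in the Naive mice. SAH 1 fell among the Naive mice. The transcription factor Otx2 (chromosome 14, 49277352 to 49287319), which specifies and maintains the epithelium, had 0.870, 2.10, 5.40 and 4.32 CPM in the SAH mice, 1.40, 1.10 and 4.22 CPM in the Sham mice and 1.28, 0.771 and 0.933 CPM in the Naive mice. For Otx2, SAH 1 was below 2 of the 3 Naive mice.

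Spread within the SAH and Sham groups was large, with a CV of CPM from 39.7% (Kl in Sham) to 120.8% (Ttr in Sham), whereas the Naive mice had CVs from 4.94% in Enpp2 to 51.5% in Slc4a5. With Sham and Naive pooled, the median biological coefficient of variation of the 10 genes was 58.0%, against 7.65% over all genes tested, and it ran from 27.6% in Kl to 100.7% in Ttr.

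Ranked per length, the 10 genes were ordered differently in the Naive and SAH groups. In Naive mice Enpp2 led with 59.9 ± 2.96 RPKM (SD, n = 3), followed by Ttr with 21.7 ± 7.92 RPKM, Kl with 4.5 ± 0.26 RPKM and Sostdc1 with 1.59 ± 0.31 RPKM, and the ranges of these neighbours did not overlap, nor did those of Sostdc1 and Clic6. Clic6 (0.72 RPKM), Folr1 (0.62 RPKM), Prlr (0.44 RPKM), Otx2 (0.37 RPKM) and F5 (0.23 RPKM) each overlapped the next, and Slc4a5 was lowest with 0.045 RPKM, apart from F5. In SAH mice Ttr led with 433.6 ± 405.4 RPKM (n = 4), above Enpp2 in 3 of 4 mice (130.8 ± 73.0 RPKM) although the ranges overlapped. Enpp2 and Kl (8.38 ± 3.34 RPKM) did not overlap, nor did Kl and Sostdc1 (3.68 ± 1.61 RPKM), and below them every pair of neighbours overlapped. In Sham mice Ttr (256.0 ± 309.1 RPKM, n = 3) and Enpp2 (105.1 ± 66.4 RPKM) overlapped as well, with Ttr above Enpp2 in 2 of 3 mice.

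The main comparison of the study asks which hippocampal transcripts differ between SAH and control. None of the 10 genes was called in it, where 701 of 14993 genes tested (4.68%) were called, 470 higher and 231 lower. All 10 had a higher mean in SAH, with a median log2 fold change of 1.01 against a median of -0.0024 over all genes, and 3 of them (Kl, F5 and Slc4a5) had an unadjusted p under 0.05 by edgeR, as did 17.0% of all genes. DESeq2 called 0 of 10 as well, where it called 1030 of 14993 genes (6.87%), and 0 of the 10 had an unadjusted p under 0.05 by it, against 16.5% of all genes. In the 3-group fit with Sham and Naive averaged in place of pooled, 0 of 10 were called (657 of 15134 genes were), 8 of 10 had an unadjusted p under 0.05, all but Prlr and Enpp2, as did 16.3% of all genes, and the log2 fold change of Ttr was 2.53 (adjusted p = 0.133). SAH and control mice overlapped in all 10 genes, while 5.2% of all genes had groups that did not overlap.

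By size, Slc4a5 had the largest log2 fold change in SAH against control, 2.06 (SE 0.83, adjusted p = 0.223), with 4.84 ± 4.79 CPM (SD, n = 4) in SAH and 1.13 ± 1.82 CPM (n = 6) in control. F5 followed at 1.67 (SE 0.70, adjusted p = 0.246) with 16.0 ± 14.9 and 4.96 ± 6.21 CPM, and Ttr at 1.64 (SE 0.99, adjusted p = 0.427) with 529.4 ± 495.0 and 169.5 ± 285.6 CPM. In each of these genes the SD was close to or above the mean in both groups. Clic6 (1.31, SE 0.62, adjusted p = 0.302) and Folr1 (1.07, SE 0.59, adjusted p = 0.380) lay in the middle. The remaining log2 fold changes were 0.95 for Otx2 (adjusted p = 0.350), 0.68 for Sostdc1 (adjusted p = 0.353), 0.66 for Enpp2 (adjusted p = 0.395), 0.58 for Kl (adjusted p = 0.271) and 0.53 for Prlr (adjusted p = 0.438).

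The count turned on a single Sham mouse. Without Sham 7, 9 of the 10 genes were called higher in SAH, all but Prlr (log2 fold change 0.83, adjusted p = 0.150), where 638 of 14930 genes tested (4.27%) were called. Leaving out each mouse in turn was planned, but Sham 7 stands out as the highest control mouse in all 10 genes. Its removal thus raises their fold changes by construction, and these calls are no separate support for a difference. The log2 fold change of Ttr was then 3.25 (SE 0.81, adjusted p = 0.0599), that of Slc4a5 3.55 (SE 0.75, adjusted p = 0.0278) and that of F5 2.65 (SE 0.60, adjusted p = 0.0408). Clic6 stood at 2.10, Folr1 at 1.85, Otx2 at 1.51, Sostdc1 at 1.07, Enpp2 at 1.06 and Kl at 0.81, with adjusted p between 0.0605 and 0.0805 in these 6 genes. Leaving out any other mouse called 0 of 10, in fits that called from 308 of all genes (without SAH 4) to 1093 (without SAH 2). Without SAH 3 the log2 fold changes were smaller, at 0.99 for Ttr, 1.24 for Slc4a5, 0.91 for F5, 0.30 for Enpp2 and 0.21 for Prlr. With SAH 3, SAH 4 and Sham 7 all left out, an analysis added after the data were seen, 0 of 10 were called (330 of 15123 genes, or 2.18%, were) and the log2 fold changes ran from 0.09 in Prlr to 1.76 in Slc4a5.

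**Figure D2:**
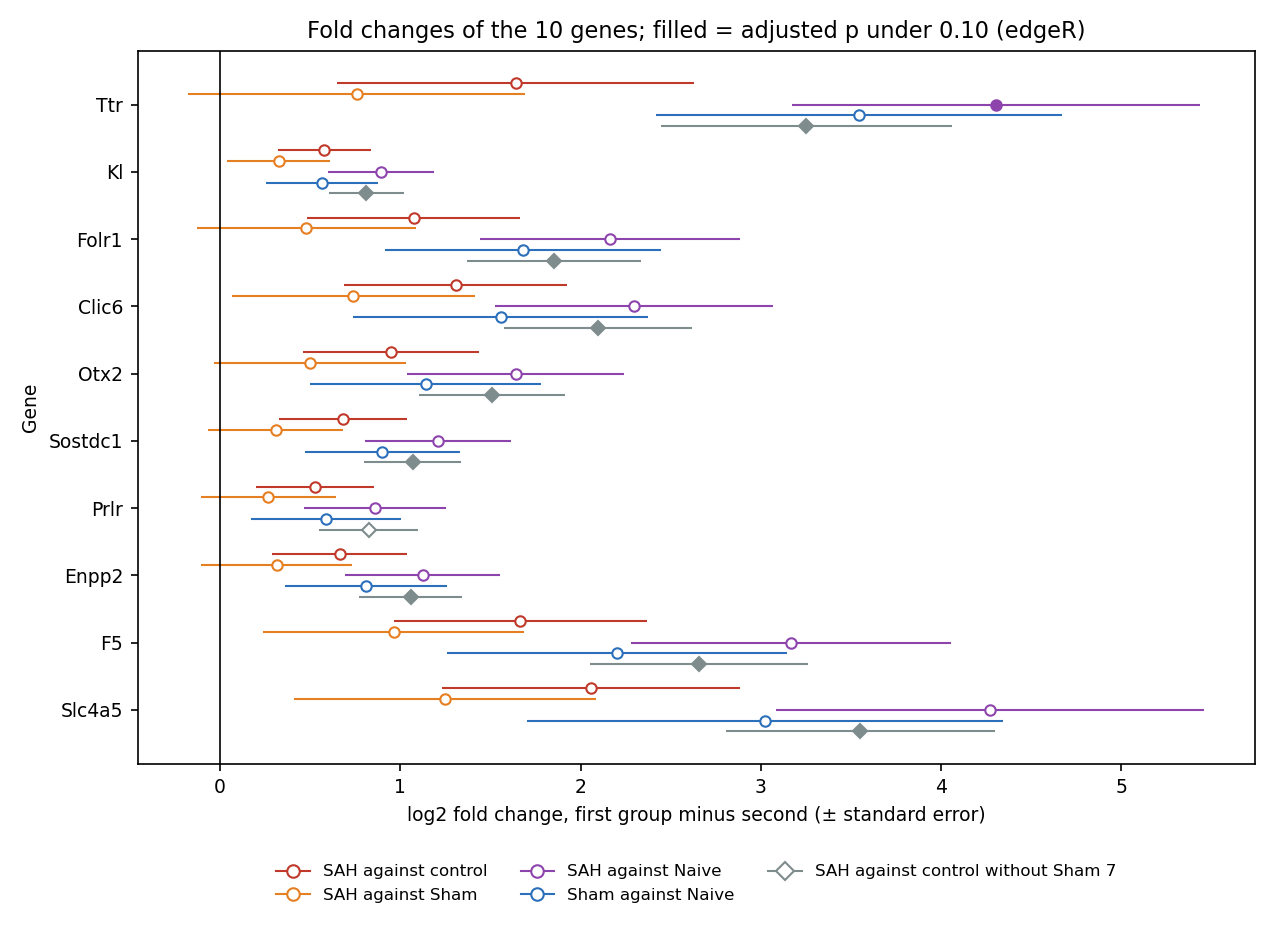
Log2 fold change (first group minus second, with bars of 1 standard error) of the 10 genes in 4 comparisons (circles), and in SAH against control without Sham 7 (diamonds); filled symbols mark an adjusted p under 0.10 by edgeR. All points lie to the right of 0, and filled symbols are Ttr in SAH against Naive and 9 of the 10 diamonds. Sham 7 was the highest control mouse in each of the 10 genes, so the diamonds are no separate support for a difference.

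The Sham mice shared the surgery but not the puncture. Against Sham, 0 of the 10 genes were called in SAH (0.72% of 15134 genes tested, or 109, were called), and 0 had an unadjusted p under 0.05 by edgeR (9.69% of all genes did), with 0 of 10 called by DESeq2, which called 302 of all genes (2.00%). Log2 fold changes were between 0.27 for Prlr and 1.25 for Slc4a5 (SE 0.84, adjusted p = 0.667), and 0.76 for Ttr (SE 0.93, adjusted p = 0.822). Without Sham 7 that of Ttr was 2.43 and that of Slc4a5 2.92, and without SAH 3 they were 0.11 and 0.43, with 0 of the 10 genes called in either case, where 15 of 15256 genes (0.0983%) and 215 of 15119 (1.42%) were called. An unadjusted p under 0.05 was found in 9 of 10 genes without Sham 7 (7.98% of all genes) and in 0 without SAH 3. All 10 genes overlapped between the groups, against 9.48% of genes with groups that did not.

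Against the Naive mice, Ttr was called higher in SAH, with a log2 fold change of 4.30 (SE 1.13, adjusted p = 0.0874), 19.8 times the Naive level of 26.5 ± 9.68 CPM (SD, n = 3). It was 1 of the 453 genes called of 15134 tested (2.99%). Slc4a5 (4.27, SE 1.19, adjusted p = 0.107) and F5 (3.17, SE 0.89, adjusted p = 0.111) missed the threshold by edgeR. DESeq2 called all 3 of them, Ttr (adjusted p = 0.00703), Slc4a5 (adjusted p = 0.00961) and F5 (adjusted p = 0.0218), among 744 of 15134 genes (4.92%). By edgeR all 10 genes had an unadjusted p under 0.05, as did 14.8% of all genes, and by DESeq2 all but Prlr, as did 13.9%. The SAH and Naive mice did not overlap in 7 of the 10 genes, Clic6, Otx2 and Prlr being the exceptions, against 13.8% of all genes. Leaving out 1 mouse moved the number called between 0 and 6. It was 0 without SAH 3, SAH 4, Sham 5, Naive 8, Naive 9 or Naive 10, it was 3 without Sham 6 (322 of all genes tested were called) or Sham 7 (389 called), 4 without SAH 2 (683 called) and 6 without SAH 1 (581 called). In the fits with 0 members called, 109 to 492 of all genes were called. Without SAH 3 the log2 fold changes were 3.65 for Ttr, 3.45 for Slc4a5 and 2.41 for F5, with adjusted p above 0.10 for Ttr and of 0.139 and 0.148 for the others.

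Between Sham and Naive, which asks what the surgery without a puncture does, 0 of 10 genes were called, where 1 of 15134 genes (0.00661%) was called. DESeq2 also called 0 of 10, and 2 of all genes. The log2 fold changes were large in size, 3.54 for Ttr (SE 1.13, adjusted p = 1.00), 3.02 for Slc4a5 (SE 1.32) and 2.20 for F5 (SE 0.94), and 4 of the 10 genes had an unadjusted p under 0.05 (Ttr, Folr1, F5 and Slc4a5) against 2.02% of all genes. Kl was the 1 gene of the 10 whose groups did not overlap, against 8.98% of all genes. Without Sham 7 the log2 fold changes were 1.88 for Ttr, 1.36 for Slc4a5 and 1.03 for F5, and 0 of 10 had an unadjusted p under 0.05, against 1.47% of all genes. The comparisons with Sham, Naive and control share mice, so that their values are not independent of each other.

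Some of the genes also varied with Ttr below the 3 high mice. On the log2 scale the 3 mice were set off by more than the range of the other 7 in 5 of the 10 genes (Kl, Clic6, Sostdc1, Prlr and Enpp2) and by less in the other 5, Ttr among them. Over all 10 mice (log2 CPM, permutation test with 100000 resamples, 2-sided, adjusted over 9 genes), r with Ttr was tested for all 9 genes but is therefore given for the remaining 4 genes only. It was 0.99 for F5 (adjusted permutation p = 4.5e-05, rho = 0.98, adjusted p = 6e-05), 0.99 for Slc4a5 (the same adjusted p, rho = 0.98), 0.98 for Folr1 (adjusted permutation p = 5.4e-05, rho = 0.99, adjusted p = 6e-05) and 0.95 for Otx2 (adjusted permutation p = 0.000193, rho = 0.90, adjusted p = 0.00103). Without SAH 3 and SAH 4, the mice farthest from the median Ttr level, r was at least 0.90 in these 4 genes, and centred on group means it was 0.94 in Otx2 and 0.98 in the others. For all 9 genes, correlations were also taken over the 7 mice other than SAH 3, SAH 4 and Sham 7, a choice made after the data were seen (exact permutation test, 2-sided, adjusted over 9 genes). F5 had r = 0.99 (adjusted p = 0.00298) and Spearman's rho = 0.93 (adjusted p = 0.0152), Slc4a5 r = 0.96 (adjusted p = 0.00298) and rho = 0.93 (adjusted p = 0.0152), by the exact permutation test. Folr1 had r = 0.95 (adjusted p = 0.00298) and the same order of mice as Ttr (rho = 1.0, adjusted p = 0.00357), and Enpp2 had r = 0.96 (adjusted p = 0.00491, rho = 0.93, adjusted p = 0.0152) by the same permutation test. These 4 genes (F5, Slc4a5, Folr1 and Enpp2) kept an r between 0.79 and 0.99 without SAH 2 and Sham 5, the mice farthest from the median Ttr level. Clic6 (r = 0.88, adjusted permutation p = 0.0293, rho = 0.79, adjusted p = 0.0864), Otx2 (r = 0.76, adjusted p = 0.0676, rho = 0.71, adjusted p = 0.113) and Sostdc1 (r = 0.76, adjusted p = 0.0681, rho = 0.75, adjusted p = 0.0994) rested in part on those 2 mice, since r fell to 0.26, 0.18 and 0.47 without them. Kl had r = 0.73 (adjusted permutation p = 0.0808) and rho = 0.43 (adjusted p = 0.354), with r = 0.62 without the 2 mice, and Prlr had r = 0.53 (adjusted p = 0.222) and rho = 0.46 (adjusted p = 0.340). Centred on group means, the r of Kl (0.30), Otx2 (0.70) and Sostdc1 (0.52) no longer passed 0.10.

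**Figure D3:**
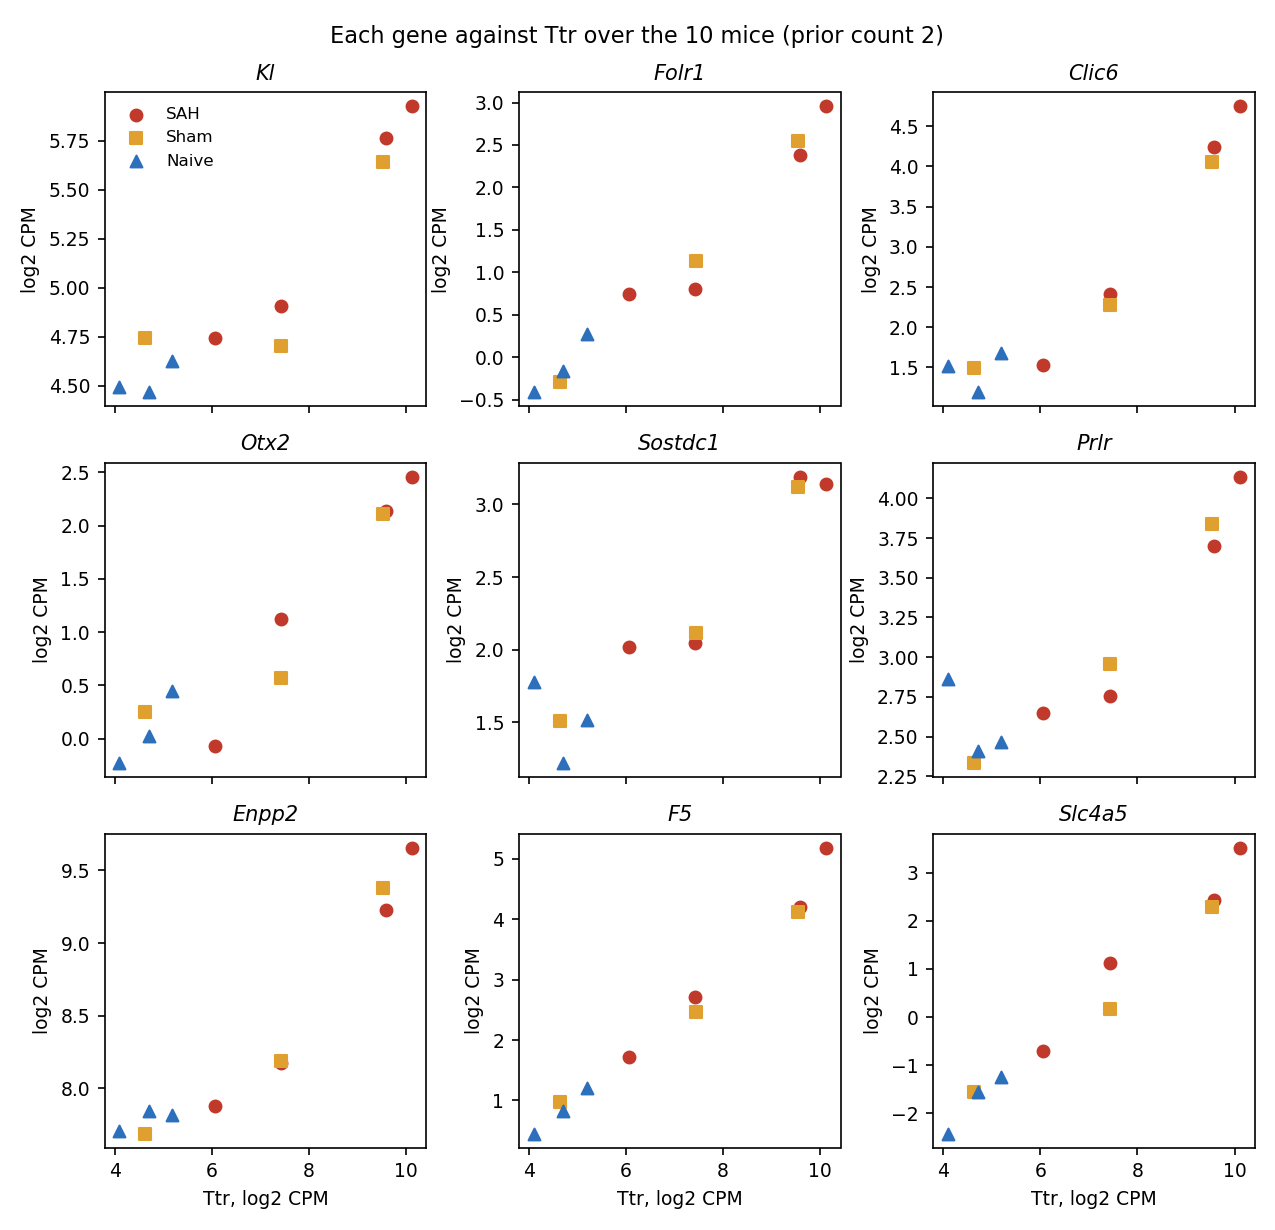
Log2 CPM of each of the 9 other genes (vertical axes, scaled per gene) against log2 CPM of Ttr (horizontal axes), with 1 point per mouse and symbols for SAH, Sham and Naive. SAH 3, SAH 4 and Sham 7 lie at the upper right in each panel, and Naive mice lie at the lower left, with Prlr of Naive 9 above that line.

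Likeness to Ttr was then ranked over all tested genes, as a description over the 10 mice (Pearson's r of log2 CPM). F5 (0.991), Slc4a5 (0.988) and Folr1 (0.984) were the 3 closest of 14992 genes. The other members ranked 12 (Clic6, 0.956), 14 (Enpp2, 0.952), 15 (Otx2, 0.949), 17 (Sostdc1, 0.946), 20 (Kl, 0.929) and 30 (Prlr, 0.906). In all, 31 genes (0.207%) reached 0.9, and 9 of them were members. Outside the 10 genes the closest were the collagen gene Col8a1 (0.983), Tmem72 (0.981), the water channel gene Aqp1 (0.979), Cab39l (0.978), the lipid transporter gene Abca4 (0.976), 1500015O10Rik (0.972), the potassium channel gene Kcnj13 (0.965), the claudin gene Cldn2 (0.964), the sulfatase gene Sulf1 (0.954) and the potassium channel subunit gene Kcne2 (0.947). Of these 10, 8 were in the list of other choroid plexus markers, and Cab39l and Sulf1 were not. The mice share their libraries across all genes, so this ranking carries no test.

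The other choroid plexus markers followed the same mice. Of 29 listed, 24 were tested, and in 17 of these SAH 3, SAH 4 and Sham 7 were the highest mice, against 2.18% of all genes tested. The median log2 fold change of the 24 in SAH against control was 0.95, and 3 of 24 were called (4.68% of all genes tested were), all higher: the sulfate transporter gene Slc13a4 (1.26, adjusted p = 0.0521), the angiotensin-converting enzyme gene Ace (0.93, adjusted p = 0.0945) and Igfbp2 (0.97, adjusted p = 0.00329), which binds insulin-like growth factors. Likeness to Ttr was 0.73 for Slc13a4, 0.92 for Ace and 0.51 for Igfbp2. Slc13a4 and Igfbp2 are also known from the meninges, and Ace from endothelium. The carbonic anhydrase gene Car12, the most abundant of the list (44.9 CPM), was nearly level between the groups, at -0.03 (adjusted p = 0.828). Mfrp was listed at 0 in every mouse.

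Fluid secretion was followed through 15 genes of ion and water transport. Of these, Slc12a2, the sodium potassium chloride cotransporter gene, was called lower (-0.20, adjusted p = 0.0890), 0 were called higher and the median log2 fold change was 0.03. Atp1b1, a subunit gene of the sodium pump and the most abundant of them at 2143 CPM, had 0.02 (adjusted p = 0.802). The 5 of 15 that ranked SAH 3, SAH 4 and Sham 7 highest (against 2.18% of all genes tested) include the member Slc4a5. Among 22 genes of the binding partners and pathways of the 10 genes, 19 were tested. The folate receptor gene Folr2 was called higher (1.44, adjusted p = 0.0910, at 0.374 CPM), and Lpar1, a receptor for the product of autotaxin, was called lower (-0.55, adjusted p = 0.0195). Likeness to Ttr over the 10 mice was 0.42 for Folr2 and -0.55 for Lpar1, and the cells behind their changes were not tested. The median of the 19 genes was 0.06, and Fgfr1, the partner receptor of Klotho and the most abundant at 141 CPM, had -0.08 (adjusted p = 0.305). Proc was listed at 0 in every mouse.

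Markers of neighbouring tissues were measured beside these genes. The calls are those of SAH against control, where 4.68% of all genes tested were called. Of the stroma and meninges list, 9 of 10 genes were called higher in SAH, with Fmod (2.10, adjusted p = 0.00440), Ogn (1.38, adjusted p = 0.0180) and Col3a1 (1.38, adjusted p = 0.00929) the largest and Igf2 (1.25, adjusted p = 0.00535) the most abundant. Its summed level was 415, 384, 206 and 289 CPM in SAH 1 to 4, 189, 194 and 190.1 CPM in Sham 5 to 7 and 146 to 157 CPM in the Naive mice. This order was not that of the choroid plexus genes: SAH 1 and SAH 2, the lower SAH mice in Ttr, were the higher ones in stroma, and Sham 7 was level with the other Sham mice. SAH 3, SAH 4 and Sham 7 were on top in 0 of the 10 stroma genes, but also in only 2.18% of all genes tested. The 12 ependyma markers, all detected, summed to 38.6 to 45.9 CPM in SAH and 37.7 to 56.7 CPM in control, with 0 called and Foxj1, the most abundant, at -0.18 (adjusted p = 0.496). Of the 8 endothelium markers 2 were called higher, Pecam1 (0.70, adjusted p = 0.0331) and Flt1 (0.79, adjusted p = 0.0975), and they summed to 138, 168, 199.98 and 258 CPM in SAH 1 to 4 and to 124 to 169 CPM in control, with Sham 7 at 124 CPM.

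Oligodendrocyte markers, the other known source of Enpp2, were called lower in SAH in 8 of 9 tested genes (4.68% of all genes tested were called), led by Mog (-0.73, adjusted p = 0.00375), Mag (-0.68, adjusted p = 0.00235) and Mbp (-0.59, adjusted p = 0.00329). They summed to 5737, 5391, 5119 and 4486 CPM in SAH 1 to 4 and to 6592, 6949 and 9144 CPM in Sham 5 to 7, and to 8180, 7584 and 7891 CPM in Naive 8 to 10. In this order Sham 7 was the highest mouse and SAH 4 and SAH 3 the lowest. The hippocampal neuron markers summed to 823, 816 and 806 CPM in SAH 3, SAH 4 and Sham 7 and to at most 802 CPM in the other mice. Of them C1ql2 was called (0.34, adjusted p = 0.0727), with Neurod6 the most abundant (-0.02, adjusted p = 0.898), and of the 6 thalamic markers 0 were called (Slc17a6, the most abundant, -0.18, adjusted p = 0.558). The single blood gene tested, Alas2, had 0.36 (adjusted p = 0.546). The part of these tissues in the values of the 10 genes was not tested.

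**Figure D4:**
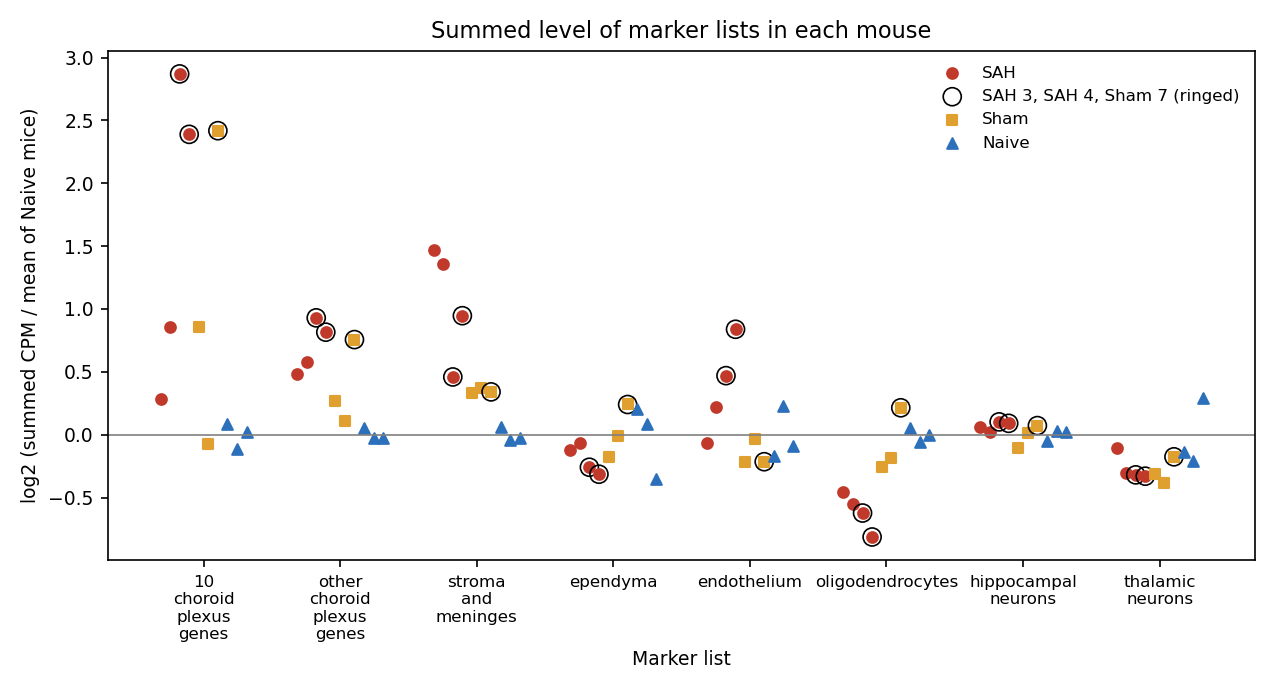
Summed CPM of each marker list in each mouse, as log2 of its ratio to the mean of the 3 Naive mice (vertical axis), for 8 lists (horizontal axis), with symbols for SAH, Sham and Naive and black rings around SAH 3, SAH 4 and Sham 7. The ringed mice are highest in both choroid plexus lists, where the 10 genes sum to 2090 CPM in SAH 3 and 1528 CPM in Sham 7, and not in stroma and meninges, where SAH 1 is highest.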

How the data were processed

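RNA sequencing of whole bilateral hippocampus was analysed in 4 SAH, 3 Sham and 3 Naive mice. Per the labels, ribosomal RNA was depleted and stranded libraries were sequenced as read pairs. The authors aligned reads to mm9 with STAR at default parameters and counted unambiguous read pairs per gene name with featureCounts 1.6.2 over merged exons, so the deposited values are raw counts without normalization, with the exonic length beside them. CPM, RPKM and log2 CPM (prior count 2) were computed here from these counts.

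Genes passed filterByExpr of edgeR 4.0.16 (minimum count 10, minimum total 15). SAH against control was a 2-group quasi-likelihood fit with TMM scaling. The other comparisons were contrasts of a 3-group fit, with Benjamini-Hochberg adjustment over all genes tested and a threshold of 0.10. The standard error is the size of the log2 fold change over the square root of F. On data simulated for SAH against control (14993 genes, 200 changed), 95 of 100 genes changed by 1 on the log2 scale and 100 of 100 changed by 2 were recovered, with 24 false calls among 219. The changed genes were drawn from all genes tested, whose median biological coefficient of variation was 7.65%. That of the 10 genes was 58.0%, so this recovery does not carry over to them. Correlations with Ttr over 10 mice (100000 resamples) are given only for genes in which the 3 highest mice were set off by less than the range of the others, and the exact permutation test over the other 7 mice (5040 orders) was added after the data were seen. Promoters came from RefSeq (GRCm38.p6). Intervals cover counting error only.

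Named were the 10 genes, up to 3 called genes with the largest change and the most abundant gene of each list, and the 10 genes most like Ttr. The members and lists were chosen with earlier results of these data known. Alternatives tried were DESeq2 1.42.0, other scalings and filters, a robust fit, Sham and Naive averaged, Sham or Naive alone as control, and each mouse left out. Analyses used R 4.3.3 and Python 3.11.15.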

Additional observations from a re-analysis of the deposited data

Results flagged for a closer look

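Sham 7 was set above the other 5 control mice in all 10 genes, by a gap past the critical value in CPM. The measure was the gap between the highest mouse and the next, divided by the range of the 6 control mice, in CPM, with a Dixon critical value of 0.625. It was 0.784 for Ttr, 0.831 for Kl, 0.717 for Folr1 and 0.823 for Clic6. It was 0.817 for Otx2, 0.685 for Sostdc1, 0.706 for Prlr, 0.816 for Enpp2, 0.739 for F5 and 0.802 for Slc4a5. Chance gives about 1 such result in 20 groups, and 10 of 20 were found here, all in the same mouse, so that they are not separate findings. On the log2 CPM scale, tried after the data were seen, 3 remained (Kl 0.76, Enpp2 0.71 and Otx2 0.66) and the other 7 genes had 0.39 to 0.62, under the critical value, so that the count depends on the scale. The 4 SAH mice gave none (critical value 0.829), since SAH 3 and SAH 4 were both high.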

How the results depend on the processing

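Of 209 log2 fold changes of single genes under 21 alternatives to SAH against control, 198 kept their side of the threshold, 11 newly passed it and 0 changed sign. The range was 0.09 to 4.31. The number called in SAH against control was 0 under DESeq2 (1030 genes called in all), other scalings (686 to 701) and other filters (649 to 728), 2 with Naive alone as control (Ttr and Slc4a5, with 282 of 14954 genes called) and 0 to 9 with each mouse left out. In SAH against Naive it was 3 with DESeq2 (Ttr, F5 and Slc4a5, with 744 of 15134 genes called), 2 with only the mice of the 2 groups (282 of 14954), and 0 to 6 with each mouse left out. The cause was not tested, beyond the fewer mice in the last of these. In SAH against Sham and in Sham against Naive it was 0 throughout, in fits that called 6 to 302 and 0 to 3 of all genes, although leaving out 1 mouse turned the sign of at least 1 gene in SAH against Sham in 2 of 10 fits. The correlation of Prlr with Ttr turned to r = -0.12 without SAH 2 and Sham 5. In the 150 bases of the member promoters nearest the start, counted with the bases after it, TAATCC (10% in the whole window), TAATTA and TATAAA (20% each) were in 0%. The TATAAA of Slc4a5 at -127 and the TAATTA of Otx2 at -141 lay outside that window. No paired analysis was possible because the groups share no replicate numbers. Counts under 10 in Slc4a5 limit its precision in Sham 6 and the Naive mice.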
